A study of Mus musculus with 8 samples.

Results

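This account follows 8 genes of transcription factors that act in myeloid blood cells: Irf8, Spi1, Cebpa, Cebpb, Cebpe, Gfi1, Pou2f2 and Zfp467. All 8 were present among the 12294 genes of the deposited expression table. Irf8, Pou2f2 and Zfp467 were chosen from earlier results of these data, in which they were among the most negative differences of AG120 against vehicle. Irf8 was also listed among the leading genes of AZA against vehicle. The other 5 were added as known myeloid factors, with those results in view. Differences of AG120 against vehicle are therefore a description without a test for all 8. For Pou2f2 and Zfp467 a test is given for AG120_AZA against AZA alone, since its 4 libraries took no part in the AG120 against vehicle difference. For Irf8 no test is given, since the AZA libraries had also helped to choose it.

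The cells were mouse leukemic progenitors named I1DN in the labels, a name the labels do not spell out. They were grown by transplantation into mice and sorted per mouse as cKit-positive, CD11b-negative cells. The labels name no sort marker that separates transplanted from host cells, and doses are not given in the sources used here. Mice received AG120 plus AZA (AG120_AZA), AG120, AZA or vehicle, with a time of 5 days in the labels and 2 libraries in each group. AG120 is ivosidenib, which inhibits mutant IDH1, and AZA is azacitidine, which blocks DNA methyltransferases. The series asks what combining the drugs does to DNA methylation and gene expression.

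The factors work as a network in the marrow. PU.1, encoded by Spi1, and the C/EBP proteins open the myeloid program in stem cells and progenitors. IRF8 binds DNA mostly with partners such as PU.1 and directs progenitors to monocytes and dendritic cells, and its loss in mice gives an excess of granulocytes. GFI1 is a repressor and C/EBP epsilon an activator of the granulocyte branch, with C/EBP epsilon needed for the late granule proteins. C/EBP alpha is needed for the step to committed granulocyte-monocyte progenitors, and C/EBP beta for granulocyte output under stress. Oct-2, encoded by Pou2f2, binds the octamer motif and is known mainly from B cells. Zfp467 encodes a zinc finger protein that in mouse marrow stroma is known for favouring fat cells over bone cells.

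Libraries were made from the 3′ ends of transcripts, so a value counts transcript ends and not whole transcripts. Values are log2 CPM, the base 2 logarithm of reads scaled to a common library total (CPM), and the authors had brought all libraries to one distribution, which removes the library totals. Depth is known only as a lower bound. Each distinct value in a library stands for a distinct read count, so a gene lying k values above the lowest has at least k reads more than the lowest genes. On that scale the median gene lay 105 steps up in AG120_AZA replicate 2 and 149 in AG120_AZA replicate 1, with the other 6 libraries between. AG120_AZA replicate 2 stood somewhat apart, with a median Pearson correlation of 0.874 with the other libraries across genes, against 0.900 to 0.921 for the other 7. The sort gene Kit stood at 4.51 and 4.26 log2 CPM in AG120_AZA, 5.15 and 5.84 in AG120, 6.65 and 5.54 in AZA, and 6.31 and 6.59 in vehicle. Itgam, which encodes CD11b, was measured in all 8 libraries and reached 4.53 log2 CPM in AZA replicate 1. Whether every library came from a different mouse is not in the labels. The p-values therefore reflect library-to-library spread, which may be technical. In sorted bulk cells, fewer cells of a type and less RNA per cell cannot be told apart.

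Irf8 lies on chromosome 8 of the mm10 build at 120736358 to 120756694 on the plus strand. Pou2f2 lies on chromosome 7 at 25087344 to 25179726 and Zfp467 on chromosome 6 at 48427697 to 48445825, both on the minus strand. These are protein-coding gene spans in GENCODE M21, an annotation of the same build. The promoters of these 3 genes are shown because their levels separated the libraries with AG120 from those without it. Each window covers 250 bases before and 50 bases after a single transcript start in RefSeq, the first listed for the gene. The build is GRCm38.p6, the assembly of mm10, and windows are printed along the gene's strand from 5′ to 3′. The Pou2f2 and Zfp467 windows lie inside the gene spans, downstream of the outermost GENCODE start. Other starts of these genes were not examined. Capitals mark matches to the motifs searched on both strands.
Irf8, chr8:120736108-120736407, plus strand: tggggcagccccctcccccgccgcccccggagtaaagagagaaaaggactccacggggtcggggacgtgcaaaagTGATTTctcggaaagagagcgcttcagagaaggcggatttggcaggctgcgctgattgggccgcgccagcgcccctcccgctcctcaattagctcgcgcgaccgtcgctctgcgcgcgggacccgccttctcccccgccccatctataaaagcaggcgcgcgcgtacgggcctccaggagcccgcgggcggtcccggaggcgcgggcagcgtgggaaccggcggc
Pou2f2, chr7:25132411-25132710, minus strand: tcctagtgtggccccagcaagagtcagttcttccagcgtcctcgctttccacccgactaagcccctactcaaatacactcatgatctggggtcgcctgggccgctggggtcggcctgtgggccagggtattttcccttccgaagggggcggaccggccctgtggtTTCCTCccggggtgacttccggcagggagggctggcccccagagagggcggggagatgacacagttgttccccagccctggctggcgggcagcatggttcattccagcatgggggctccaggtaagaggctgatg
Zfp467, chr6:48445041-48445340, minus strand: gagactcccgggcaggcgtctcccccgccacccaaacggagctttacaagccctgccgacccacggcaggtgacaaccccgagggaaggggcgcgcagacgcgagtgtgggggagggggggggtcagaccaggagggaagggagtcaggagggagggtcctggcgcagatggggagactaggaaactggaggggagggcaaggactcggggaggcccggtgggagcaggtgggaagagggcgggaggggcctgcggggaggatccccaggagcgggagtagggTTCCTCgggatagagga

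The motifs were GAGGAA for the ETS family to which PU.1 belongs, GAAANNGAA for IRF factors, TTGCNNAA for C/EBP factors, ATGCNAAT for the octamer, and AAATCA for GFI1. No match overlapped another in the 3 windows. The Pou2f2 and Zfp467 windows each held 1 ETS match on the reverse strand, first base at -85 and 34 from the start, and 27.1% of 9244 promoters of genes in the table held one. The Irf8 window held 1 GFI1 match, on the reverse strand at -175, and 8.22% of those promoters held one. None of these 3 windows held the IRF, C/EBP or octamer letters, which were in 7.16%, 8.18% and 2.27% of the 9244 promoters. The Irf8 window held 38 CpG sites, the Pou2f2 window 13 and the Zfp467 window 18, beside a median of 21 and quartiles of 13 and 29 over the same promoters. RefSeq windows were matched for 6 of the 8 genes, and Spi1 and Cebpe had no entry.

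Irf8 stood at 4.30 and 4.07 log2 CPM in the AG120_AZA libraries, 3.33 and 3.52 in AG120, 5.32 and 5.39 in AZA, and 5.99 and 7.23 in vehicle. No pair of groups overlapped, and the order from high to low was vehicle, AZA, AG120_AZA, AG120. The level was thus lowest with AG120 alone, and higher in both libraries with AZA added to it, by 0.76 ± 0.37 (SE) on the log2 scale. Without AG120, AZA went with the opposite sign: AZA minus vehicle was -1.26 ± 0.37, and -0.63 without vehicle replicate 2. Both signs are favoured by the choice of Irf8 for low AG120 and high vehicle values. AG120 minus vehicle was -3.19 ± 0.37, or 9.11 times lower, and AG120_AZA minus vehicle was -2.43 ± 0.37. Vehicle replicate 2 lay well above vehicle replicate 1.

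Pou2f2 stood at 1.92 and 1.62 log2 CPM in AG120_AZA, 2.18 and 3.05 in AG120, 4.41 and 4.57 in AZA, and 4.97 and 5.02 in vehicle. Its groups did not overlap either, with vehicle highest, then AZA, AG120 and AG120_AZA. AG120 minus vehicle was -2.38 ± 0.41 and AG120_AZA minus vehicle -3.23 ± 0.41. At its lowest, in AG120_AZA replicate 2, it still lay 14 steps above the lowest genes. An antisense gene within its span, D930028M14Rik, had -0.17 and 2.37 log2 CPM in AG120_AZA, 0.85 in both AG120 libraries, -0.68 and -3.43 in AZA, and -2.74 and -3.43 in vehicle. The sources do not say whether reads were counted by strand, so reads of the pair cannot be told apart.

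Zfp467 stood at 1.61 and 2.37 log2 CPM in AG120_AZA, 1.09 and 2.57 in AG120, 5.64 and 4.93 in AZA, and 4.72 and 4.62 in vehicle. AZA was the highest group and lay above vehicle in both libraries, by 0.61 ± 0.53 (SE). The AG120 and AG120_AZA groups overlapped, and AG120 minus vehicle was -2.84 ± 0.53. In the AG120-treated libraries its reads were few: it lay 23 and 24 steps above the lowest genes in AG120_AZA and 13 and 39 in AG120, against 305 and 166 in AZA and 154 and 158 in vehicle.

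**Figure D1:**
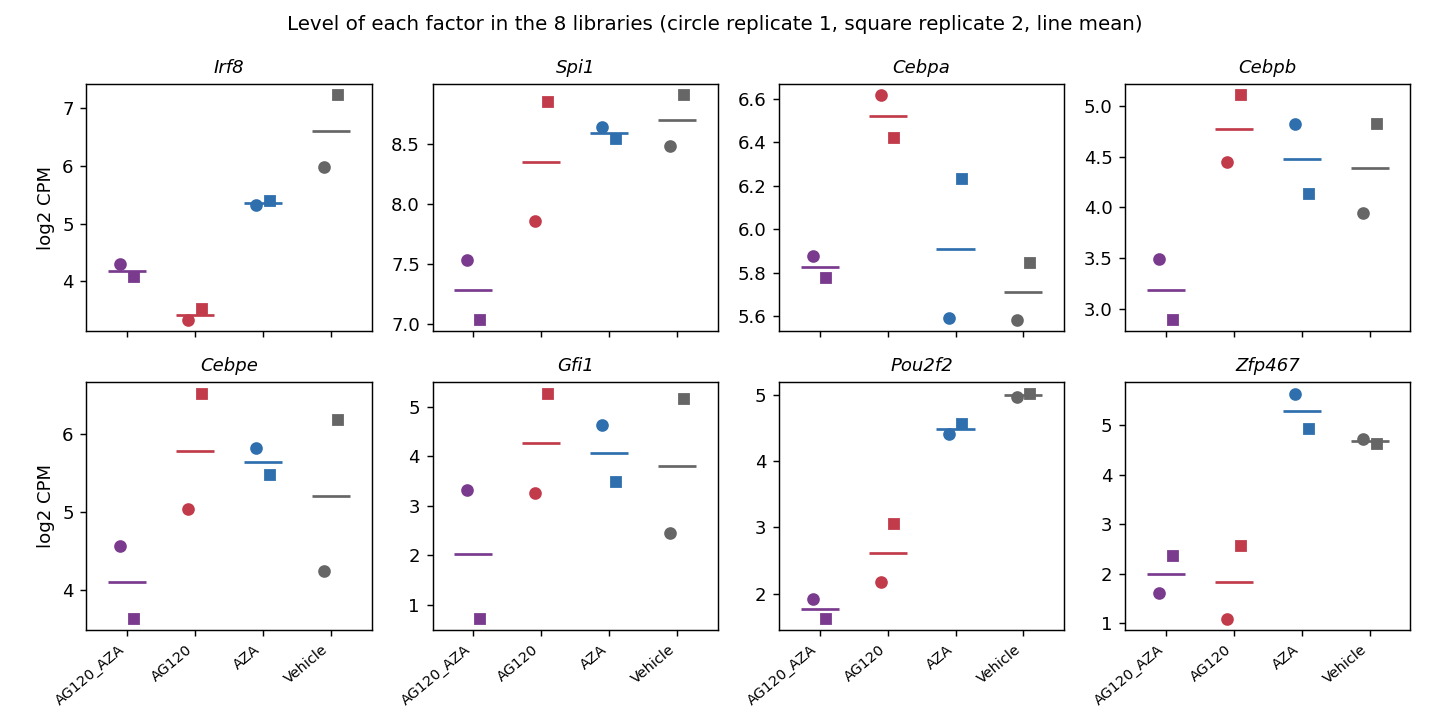
Log2 CPM of each factor (vertical axes, each panel with its own range) in AG120_AZA, AG120, AZA and vehicle; points are libraries and lines are means of 2. Irf8, Pou2f2 and Zfp467 lie lower in all 4 libraries with AG120 than in the 4 without it, and the other 5 factors overlap between these sets.

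In these 3 genes the 4 libraries with AG120 lay below the 4 without it, leaving gaps of 1.02 log2 units for Irf8, 1.36 for Pou2f2 and 2.05 for Zfp467. Of all genes, 5.99% were separated in that direction and 8% in the other. Since AG120 against vehicle chose these genes, the separation is a description of them. The other 5 factors overlapped between these sets.

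Adding AG120 to AZA gave the comparison in which 7 factors were tested, all but Irf8. It shares its AG120_AZA libraries with the comparisons against AG120 and vehicle, so these are not independent of one another. Pou2f2 fell by 2.72 ± 0.41 (SE) on the log2 scale, to 1.77 ± 0.21 log2 CPM in AG120_AZA, against 4.49 ± 0.11 in AZA (SD, n = 2 each; limma adjusted p = 0.00949). Zfp467 fell by 3.29 ± 0.53, to 1.99 ± 0.54 in AG120_AZA, against 5.28 ± 0.50 in AZA (limma adjusted p = 0.0113). These are levels 6.59 and 9.8 times lower. No other factor passed, so 2 of 7 were called lower and 0 higher. Both called genes had been chosen for negative AG120 minus vehicle differences, so the count does not describe myeloid factors as a set. None of the 5 factors added as known myeloid factors was called. Over all genes 1.2% were called lower in this comparison and 1.06% higher.

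Irf8 had 4.18 ± 0.16 log2 CPM in AG120_AZA and 5.35 ± 0.05 in AZA (SD, n = 2 each), a difference of -1.17 ± 0.37 (SE), given without a test. Spi1 stood just outside the threshold, with 7.53 and 7.03 log2 CPM in AG120_AZA and 8.64 and 8.54 in AZA (difference -1.31 ± 0.31, limma adjusted p = 0.054). The differences of Cebpb, Cebpe and Gfi1 were -1.29 ± 0.42, -1.55 ± 0.61 and -2.04 ± 1.00 (limma adjusted p = 0.135, 0.199 and 0.291). Without AG120_AZA replicate 2 the Gfi1 difference was -0.73, and without AG120_AZA replicate 1 it was -3.34. For Cebpa the difference was -0.09 ± 0.26 (adjusted p = 0.894). In the 5 factors added as known myeloid factors all differences were negative, from -2.04 for Gfi1 to -0.09 for Cebpa. The median over all genes was 0.0365. In Spi1, Cebpb, Cebpe and Gfi1 both AG120_AZA libraries lay below both AZA libraries, as did 22.9% of all genes. These genes share the same 4 libraries and are not independent. Irf8, Pou2f2 and Zfp467 were lower in the same way, which their choice for low values with AG120 favours.

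The 2 calls depend on single libraries. Both passed without AG120_AZA replicate 1 (limma adjusted p = 0.0107 for Pou2f2 and 0.0264 for Zfp467). Without AG120_AZA replicate 2, the library that stood apart, the differences of Pou2f2 and Zfp467 were -2.57 and -3.67, and neither passed (limma adjusted p = 0.078 and 0.0596). Without AZA replicate 1 they were -2.80 and -2.94 (adjusted p = 0.104 and 0.163), and without AZA replicate 2 Pou2f2 was lost (-2.64, adjusted p = 0.0529) while Zfp467 passed (adjusted p = 0.0407). With no mean-variance trend in the model neither passed (adjusted p = 0.0546 and 0.0933). Spi1 passed in 6 of 14 other settings, among them the fit to only the groups compared (adjusted p = 0.0265), and its adjusted p ranged from 0.0252 to 0.358.

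**Figure D2:**
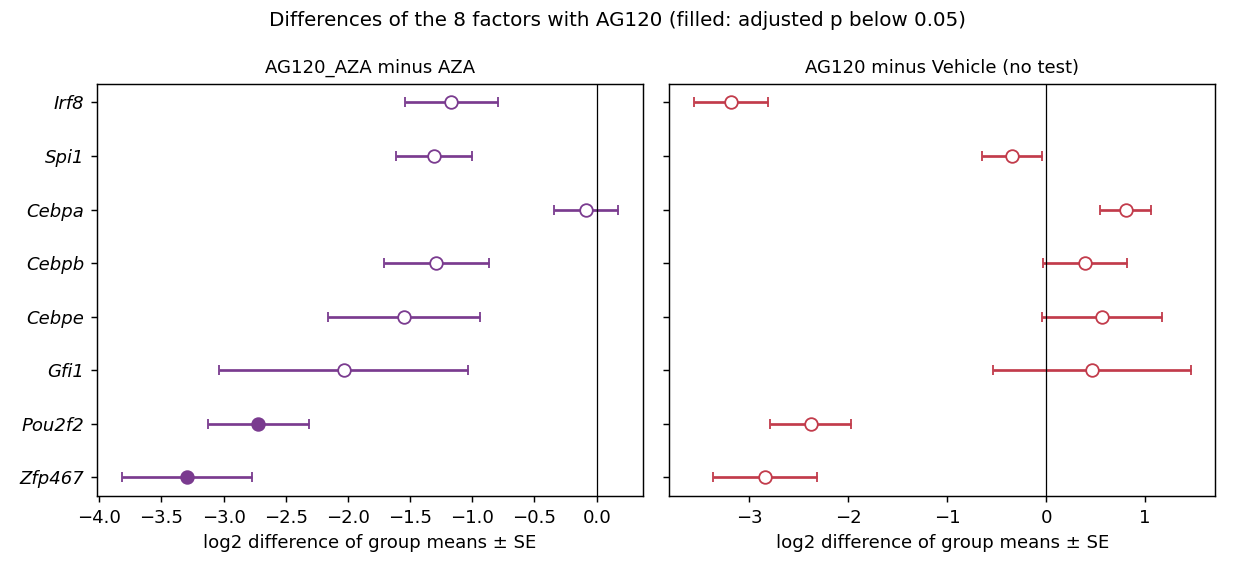
Log2 difference of group means with its standard error for each factor, AG120_AZA minus AZA on the left and AG120 minus vehicle, given without a test, on the right; Irf8 has no test on either side, and filled points have a limma adjusted p below 0.05. Pou2f2 (-2.72) and Zfp467 (-3.29) are the filled points, and on the right the same 2 genes and Irf8 (-3.19) lie farthest below 0.

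Spi1, which encodes PU.1, was the most abundant of the 8 in CPM, a scale without length correction that suits 3′-end reads. It stood at 7.53 and 7.03 log2 CPM in AG120_AZA, 7.86 and 8.84 in AG120, 8.64 and 8.54 in AZA, and 8.48 and 8.91 in vehicle. Only AG120_AZA lay apart; the other groups overlapped in the order vehicle, AZA, AG120. It fell by 1.41 ± 0.31 (SE) on the log2 scale in AG120_AZA against vehicle, or 2.66 times lower (limma adjusted p = 0.0347). It was the 1 of 5 factors called in that comparison, where 1.38% of all genes were called lower. Without AG120_AZA replicate 2 the difference was -1.16 (adjusted p = 0.267). The call was also lost without either AZA library (adjusted p = 0.0551 and 0.0575) and without vehicle replicate 1 (-1.62, adjusted p = 0.0678) or vehicle replicate 2 (-1.20, adjusted p = 0.149). It was lost as well with no trend in the model (adjusted p = 0.183).

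Cebpa, the early factor of the C/EBP family, stood at 5.88 and 5.78 log2 CPM in AG120_AZA, 6.62 and 6.42 in AG120, 5.59 and 6.23 in AZA, and 5.58 and 5.84 in vehicle. AG120 was the highest group and overlapped no other, 0.80 ± 0.26 (SE) above vehicle on the log2 scale, while the other groups overlapped in the order AZA, AG120_AZA, vehicle. AG120_AZA minus vehicle was 0.11 ± 0.26 (limma adjusted p = 0.839). The gene lies on chromosome 7 at 35119293 to 35121928, on the plus strand.

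Cebpb stood at 3.49 and 2.89 log2 CPM in AG120_AZA, 4.44 and 5.11 in AG120, 4.82 and 4.13 in AZA, and 3.95 and 4.82 in vehicle. AG120_AZA lay below every library of the other groups, which overlapped one another. The difference from vehicle was -1.20 ± 0.42 (SE) and did not pass (limma adjusted p = 0.141). GENCODE places Cebpb, at 167688915 to 167690418 on chromosome 2, within the span of the antisense gene Tmem189, whose level stayed between 5.06 and 5.91 log2 CPM in the 8 libraries.

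Cebpe and Gfi1, the granulocyte factors, varied most between libraries of one group. Cebpe stood at 4.57 and 3.64 log2 CPM in AG120_AZA, 5.04 and 6.52 in AG120, 5.82 and 5.48 in AZA, and 4.24 and 6.18 in vehicle. Gfi1 stood at 3.33 and 0.72 log2 CPM in AG120_AZA, 3.26 and 5.27 in AG120, 4.63 and 3.49 in AZA, and 2.44 and 5.16 in vehicle. For both genes the mean was lowest in AG120_AZA, and neighbours in the order AG120, AZA, vehicle, AG120_AZA overlapped. In AG120_AZA replicate 2, Gfi1 lay only 7 steps above the lowest genes. Against vehicle their differences in AG120_AZA were -1.11 ± 0.61 (SE) and -1.78 ± 1.00 (limma adjusted p = 0.327 and 0.341).

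In Spi1, Cebpb, Cebpe and Gfi1 replicate 2 lay above replicate 1 in AG120 and vehicle and below it in AG120_AZA and AZA. Primary granule genes moved between the same libraries. The 5 measured of 5 (Mpo, Elane, Prtn3, Ctsg and Ms4a3) summed to 5500 and 2610 CPM in AG120_AZA, 8880 and 16200 in AG120, 10500 and 12300 in AZA, and 6880 and 14500 in vehicle. Elane, neutrophil elastase, stood at 7.92 and 6.80 log2 CPM in AG120_AZA, 8.49 and 10.92 in AG120, 8.59 and 8.79 in AZA, and 7.28 and 9.53 in vehicle. Except in AZA, the granule sum and these 4 factors differed between replicates in the same direction. The part of a changed cell mix in the factors' differences was not tested.

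Adding AZA to AG120 gave negative differences in all 5 factors tested, with a median of -1.59 beside 0.0236 over all genes. Those of Spi1, Cebpa, Cebpb, Cebpe and Gfi1 were -1.07 ± 0.31, -0.69 ± 0.26, -1.59 ± 0.42, -1.68 ± 0.61 and -2.24 ± 1.00 (SE). None passed in limma (adjusted p from 0.384 to 0.486), although all 5 had an unadjusted p below 0.05, as had 1237 of all genes. Of all genes 0% were called here. The count over all genes was 213 without AG120_AZA replicate 1, where none of the 5 factors was called. Pou2f2 differed by -0.85 ± 0.41 and Zfp467 by 0.16 ± 0.53 in the same comparison, both without a test.

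AZA alone was compared with vehicle. The 5 tested differences ran from -0.10 ± 0.31 (SE) for Spi1 to 0.44 ± 0.61 for Cebpe, with 0.20 ± 0.26 for Cebpa, 0.09 ± 0.42 for Cebpb and 0.26 ± 1.00 for Gfi1. None passed in limma and 0 had an unadjusted p below 0.05. Of all genes 0% were called and 432 had an unadjusted p below 0.05.

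Whether AG120 acted otherwise in the presence of AZA was asked with the interaction, the AG120_AZA minus AZA difference less the AG120 minus vehicle difference. It was negative in all 5 factors tested: -0.96 ± 0.43 (SE) for Spi1, -0.89 ± 0.37 for Cebpa, -1.68 ± 0.60 for Cebpb, -2.11 ± 0.86 for Cebpe and -2.50 ± 1.42 for Gfi1. None passed in limma (adjusted p from 0.794 to 0.808). An unadjusted p below 0.05 was found for 4 of the 5 and for 765 of all genes, and 0% of all genes were called. As values without a test, it was 2.02 ± 0.53 for Irf8, -0.34 ± 0.58 for Pou2f2 and -0.45 ± 0.74 for Zfp467.

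Other members of the same factor families were compared between AG120_AZA and AZA. Of 6 measured IRF genes, Irf1, an interferon-response factor, fell by 1.38 ± 0.21 (SE) on the log2 scale (limma adjusted p = 0.00949). It stood at 6.34 and 6.31 log2 CPM in AG120_AZA, 6.73 and 6.81 in AG120, 7.91 and 7.52 in AZA, and 7.66 and 7.83 in vehicle. Irf5, which acts downstream of Toll-like receptors, had a difference of -1.52 ± 0.37 that did not pass (adjusted p = 0.0575). The list's median was -0.286. Irf1, Irf2 and Irf5 were lower in all 4 libraries with AG120 than in the 4 without it, as were 5.99% of all genes. Among 12 measured ETS genes, Erg, a factor of stem and progenitor cells, fell by 1.75 ± 0.38 (adjusted p = 0.0405), and the median was -0.34. Of the 3 measured C/EBP family genes outside the 8, none was called (median -1.13): Cebpd differed by -1.65 ± 0.44 and the stress factor Ddit3 by 0.99 ± 0.25. The median is the value of Cebpg, which stood at 6.11 and 3.85 log2 CPM in AG120_AZA. Without AG120_AZA replicate 2 the Cebpg difference was 0.0024. Pou2f1, the ubiquitous relative of Pou2f2 and the 1 measured gene of 4 in its list, differed by -0.48 ± 0.32 (adjusted p = 0.446).

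Gfi1b, the paralog of Gfi1 that acts in red cell and platelet precursors, went the other way. It rose by 2.77 ± 0.39 (SE) on the log2 scale in AG120_AZA against AZA (limma adjusted p = 0.00712). Its levels were 4.65 and 4.53 log2 CPM in AG120_AZA, 3.95 and 4.01 in AG120, 1.97 and 1.67 in AZA, and 2.32 and 2.47 in vehicle. It was the 1 of 6 genes called in a list of Gfi1b and GFI1 corepressors (median 0.214). Among 10 erythroid, mast cell and megakaryocyte factors 2 were called higher, and the list's median was 0.226. These were Klf1, higher by 3.17 ± 0.36, and Gata1, by 2.15 ± 0.35 (limma adjusted p = 0.00376 and 0.0128). Of 37 measured other myeloid factors 1 was called, Zbtb46, a dendritic cell factor, which rose by 2.72 ± 0.57 (adjusted p = 0.0355). The median of that list was -0.547, with 28 of 37 differences negative. Without AG120_AZA replicate 2 none of the genes called in these factor lists passed, Klf1 excepted (adjusted p = 0.0469).

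Lists of known target genes were compared for PU.1, IRF8, C/EBP alpha, C/EBP epsilon and GFI1. Of 11 targets of PU.1, 9 had negative differences (median -1.17) and 1 was called: Cd68, a lysosomal protein of macrophages, fell by 1.71 ± 0.31 (SE) on the log2 scale (limma adjusted p = 0.0187). Of 5 measured targets of IRF8 all were negative (median -1.23) and none was called. Cybb, the oxidase subunit that both factors activate, differed by -2.92 ± 0.77 (adjusted p = 0.0726). Of 4 targets of C/EBP alpha the interleukin 6 receptor gene Il6ra was called, falling by 2.91 ± 0.47 (adjusted p = 0.0121; list median -2.23). Of 5 secondary granule genes that C/EBP epsilon activates, 5 had negative differences (list median -3.42) and 4 were called lower. Among those called, Ngp fell by 3.20 ± 0.50 and Lcn2 by 3.03 ± 0.50 (limma adjusted p = 0.0109 and 0.0137). In AZA minus vehicle the C/EBP epsilon list had a median of 1.86 beside -0.0096 over all genes, while Cebpe itself differed by 0.44 ± 0.61. Of 3 measured genes that GFI1 represses none was called (median -0.623). Without AG120_AZA replicate 2 no gene of these 5 lists was called.

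**Figure D3:**
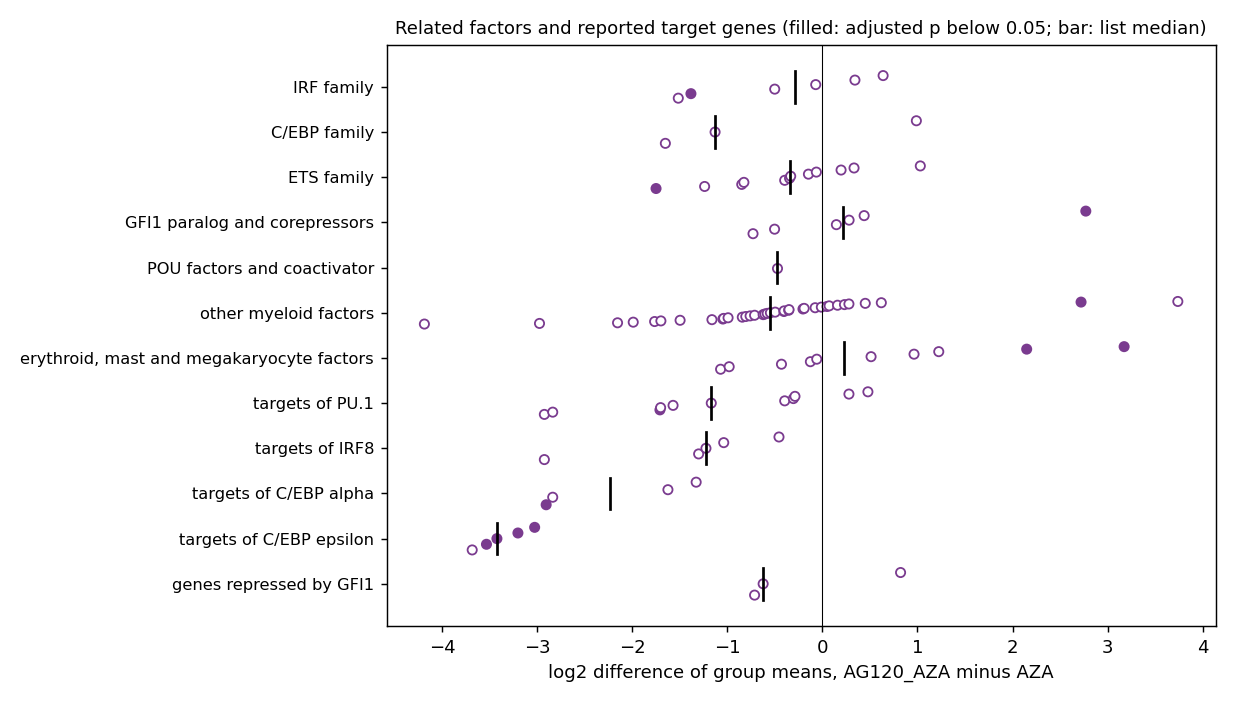
Log2 difference of group means, AG120_AZA minus AZA, for each gene of the lists of related factors and target genes; points are genes, bars are list medians and filled points have a limma adjusted p below 0.05. The C/EBP epsilon targets have the lowest list median (-3.42), and Gfi1b, Gata1 and Klf1 are filled points above it.

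Markers of other cell types moved with these groups. The 10 monocyte and macrophage markers summed to 403 and 445 CPM in AG120_AZA, 462 and 625 in AG120, 2060 and 1130 in AZA, and 758 and 2520 in vehicle. This sum was lower in each library with AG120 than in any without it. Of the single markers 4 of 10 (Csf1r, F13a1, Ms4a6c and Lyz2) were lower in that way, as were 5.99% of all genes. Cx3cr1, a chemokine receptor, went the other way, with a difference of 1.92 between AG120_AZA and AZA (limma adjusted p = 0.1). In that comparison 2 of 10 (Ms4a6c and Lyz2) were called lower (median -2.18). The 10 neutrophil markers summed to 2820 and 1070 CPM in AG120_AZA, 3920 and 6340 in AG120, 15300 and 11000 in AZA, and 2860 and 13000 in vehicle. Of these 5 of 10 were called lower (median -3.11), and 4 of them are also in the C/EBP epsilon list. Of the 5 primary granule markers none was called (median -1.62). The 7 measured of 11 dendritic cell markers summed to 172 and 197 CPM in AG120_AZA, 187 and 55.2 in AG120, 282 and 148 in AZA, and 128 and 141 in vehicle. Their sum did not follow Irf8. Zbtb46, at a mean of 2.28 log2 CPM, was the only call of that list, higher by 2.72 in AG120_AZA against AZA (limma adjusted p = 0.0355). Cd74, H2-Aa and H2-Ab1 had the highest means of that list (5.93, 5.35 and 4.21 log2 CPM) and so weighed most in the sum. The defining genes Siglech and Clec9a were not among the genes measured, and Xcr1 was measured at a low mean of 0.48 log2 CPM.

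B cell markers were scarce. Only 3 of 11 were measured (Cd79b, Ighm and Vpreb1), and they summed to 20.1 and 12.9 CPM in AG120_AZA, 15.9 and 20.4 in AG120, 12.9 and 36 in AZA, and 31.1 and 38.7 in vehicle. Ighm was lower in each library with AG120 than in any without it, as were 5.99% of all genes, while Cd79b and Vpreb1 overlapped. It stood at 2.21 and 1.51 log2 CPM in AG120_AZA and 1.09 and 1.91 in AG120. Its values were 2.26 and 3.32 in AZA and 3.57 and 4.29 in vehicle. Pax5 and Ebf1 were not among the genes measured. Pou2f2 lay 135 and 130 steps above the lowest genes in AZA and 184 and 209 in vehicle. Basophil, mast cell and eosinophil markers (11 measured) summed to 3660 and 2470 CPM in AG120_AZA, 3540 and 3940 in AG120, 1480 and 1520 in AZA, and 1190 and 959 in vehicle, and 3 were called higher in AG120_AZA against AZA. Of 10 erythroid markers 5 were called higher (median 2.16). The globin genes Hba-a1, Hba-a2, Hbb-bs and Hbb-bt were not called and differed by 0.09, 0.09, 0.25 and -0.15. The list summed to 3930 and 3750 CPM in AG120_AZA and to 1940 and 4770 in AZA, which overlapped. In AG120 it summed to 1830 and 607 CPM, and in vehicle to 2450 and 1670. Of 6 megakaryocyte markers none was called (median 0.241), nor of 2 measured T and NK cell markers (median -0.792). Of the genes of the sort, Kit was called lower in AG120_AZA against AZA and Itgam was not, and Cd34, a progenitor surface gene that was not sorted on, was called lower. Without AG120_AZA replicate 2, erythroid calls numbered 1, neutrophil and monocyte calls 0, and Kit was lost (adjusted p = 0.247), while Cd34 and the 3 basophil, mast cell and eosinophil markers passed. The 11 mitochondrially encoded genes, a coarse sign of RNA quality, had none called (median 0.187). However, 4 of the 11 were higher in each library with AG120 than in any without it, as were 8% of all genes. Their median in AG120 minus vehicle, given without a test, was 0.385, so even RNA quality between these groups is not shown. The part of these cell types in the factors' differences was not tested.

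The genes whose profile was most like that of Irf8 were sought by the root mean square difference of centred log2 values over the 8 libraries. They were Tmprss3, a membrane serine protease (0.603), Cd93, a receptor of immature progenitors (0.649), Tifab (0.651), Csf1r, the receptor for macrophage colony-stimulating factor (0.652), and Il4ra, the interleukin 4 receptor chain (0.672). Csf1r stood at 6.75 and 6.84 log2 CPM in AG120_AZA, 6.59 and 7.61 in AG120, 8.52 and 8.21 in AZA, and 7.87 and 9.40 in vehicle. Like Irf8, each of these genes had its highest value in vehicle replicate 2, which the choice by profile favours. Among the factors, Pou2f2 was closest to Irf8 (0.74, with 37 genes nearer, Irf8 itself counted), then Zfp467 (0.997) and Spi1 (1.06). Gfi1 (1.64) and Cebpa (1.49) were the least alike.

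**Figure D4:**
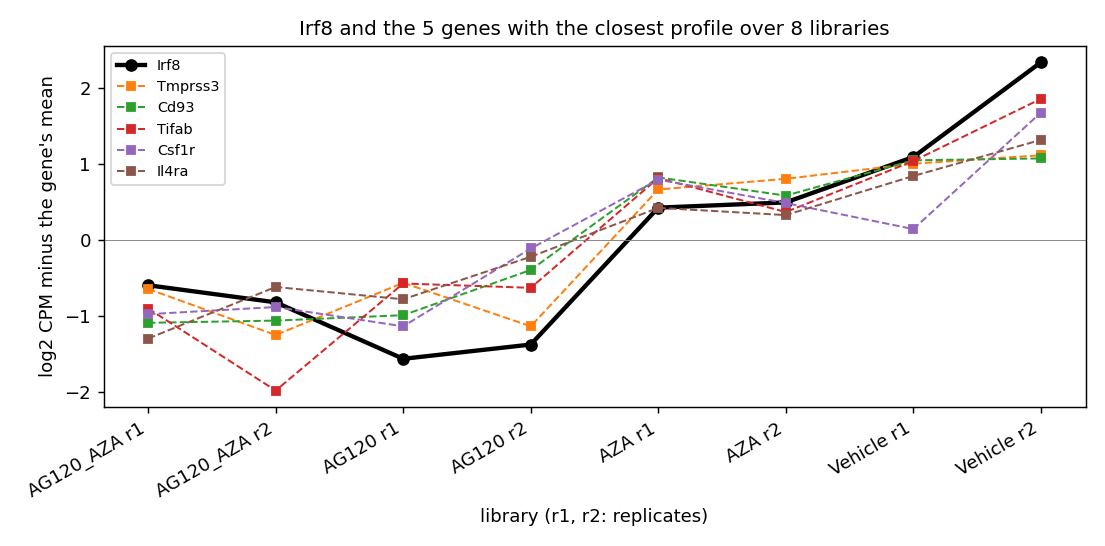
Log2 CPM minus each gene's own mean (vertical axis) in the 8 libraries for Irf8 (solid line) and the 5 genes with the closest profile (dashed lines). All 6 genes lie below their mean in the libraries with AG120 and above it in those without, which choosing the 5 by their profile favours. The root mean square differences from Irf8 run from 0.603 to 0.672 log2 units.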

How the data were processed

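Expression was measured by QuantSeq 3′ mRNA sequencing in 8 libraries, 2 per group. The submitters' processing notes name HISAT2 2.1.0 with build mm10, featureCounts and Subread 1.6.3, edgeR 3.28.1 and limma 3.42.2 in R 3.6.2, and cutadapt 1.14 and bcl2fastq 2.17.1.14. The deposited table holds log2 CPM for 12294 genes, which the authors had normalized to one distribution: each library peaks at 13.37. Such scaling hides differences in total RNA and in depth.

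The values were used as deposited. Differences were fitted in limma 3.58.1 under R 4.3.3 (eBayes with trend, 4 group means over 8 libraries, 4 residual and 7.06 prior degrees of freedom), with two-sided p-values adjusted by Benjamini-Hochberg over all 12294 genes and calls at an adjusted p below 0.05. The fit was checked on simulated data. Errors are moderated standard errors for differences and SD for levels. The genes, lists of families, targets and markers, and tests were chosen with earlier results of these data known. From each list the text names up to 4 genes by smallest p with a mean log2 CPM of at least 3, and called genes of factor lists. Irf8-like genes are the 5 with the smallest profile difference and that mean. Il6ra, below that mean, was named because it was called, and dendritic and B cell markers for their presence or absence. Also outside the rule, Cx3cr1 and the globin genes were named for not following their lists. The primary granule genes were named as parts of a sum, and Elane to show replicate differences. All these exceptions were picked after their values were seen. List members absent from the table are those not measured. Symbols were placed with GENCODE M21, which matched 12064 symbols; promoters are from RefSeq.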

Additional observations from a re-analysis of the deposited data

Results flagged for a closer look

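Among the 8 factors, Irf8 was flagged because AZA went with opposite signs in the absence and the presence of AG120. The share of all genes with such opposite moves was not counted. AG120_AZA minus AG120 was 0.762 on the log2 scale, with both AG120_AZA libraries above both AG120 libraries, while AZA minus vehicle was -1.26, with both AZA libraries below both vehicle libraries. The second value was -0.63 without vehicle replicate 2 and -1.88 without vehicle replicate 1. The difference between these effects was not tested, because the vehicle and AG120 values had helped to choose the gene. Choosing a gene for low AG120 and high vehicle values by itself favours both signs.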

How the results depend on the processing

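Of the factors called, 2 in AG120_AZA against AZA and 1 of 5 in AG120_AZA against vehicle, the counts were 0 and 0 with no mean-variance trend. With single libraries left out they ranged from 0 to 3 and from 0 to 1; a group left with 1 library was assumed to vary like the others. Precision weights, a pseudocount of 1 on CPM and the fit to only the groups compared each gave 3 in the first comparison, Spi1 being added. In AG120_AZA against AG120, AZA against vehicle and the interaction the count was 0 in every setting run. In tested comparisons the direction of factors that were not called turned in 9 instances, and among values without a test in 10, all on leaving out a library. The tested ones were these. In AZA against vehicle without AZA replicate 1, Cebpb was -0.25 and Gfi1 -0.31; without AZA replicate 2, Cebpa was -0.12; without vehicle replicate 1, Cebpb, Cebpe and Gfi1 were -0.35, -0.53 and -1.10; without vehicle replicate 2, Spi1 was 0.11. Cebpa was 0.23 in AG120_AZA against AZA without AZA replicate 2, and -0.0176 in AG120_AZA against vehicle without vehicle replicate 1. Leave-one-out ranges were -0.40 to 0.23, -0.12 to 0.52 and -0.02 to 0.24 for Cebpa in AG120_AZA against AZA, AZA against vehicle and AG120_AZA against vehicle. In AZA against vehicle they were -0.35 to 0.53 for Cebpb, -0.53 to 1.41 for Cebpe, -1.10 to 1.61 for Gfi1 and -0.32 to 0.11 for Spi1. The cause was not tested.

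Calls over all genes numbered 278 in AG120_AZA against AZA and 371 in AG120_AZA against vehicle. They were 9 and 43 with no trend, 236 and 290 with precision weights, 205 and 272 with a mean log2 CPM of at least 3, 427 and 502 with the pseudocount, 213 and 370 with the replicate block, and 297 and 200 with only the groups compared. Leaving out AG120_AZA replicate 1 gave 594 and 727, and leaving out AG120_AZA replicate 2 gave 30 and 37. In AG120_AZA against AZA 14 genes were called without AZA replicate 1 and 157 without AZA replicate 2. In AG120_AZA against vehicle 234 were called without vehicle replicate 1 and 242 without vehicle replicate 2. Replicate numbers are shared in the labels, but the deviations of same-numbered libraries correlated between groups at only -0.111 to 0.194 across genes. They were therefore not taken as pairs. Of 8 libraries 8 correlated best with one of their own number, but the 2 deviations of a group mirror each other. That count thus rests only on AG120 with vehicle (0.194) and AG120_AZA with AZA (0.114). With the replicate block the factors called were 2 and 1, as without it. With 2 libraries a group, a difference that missed the threshold is not shown to be absent.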
